A study of Saccharomyces cerevisiae with 6 samples.

Results

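Aminoacyl-tRNA synthetases were examined in RNA-seq libraries of the Saccharomyces cerevisiae wild-type strain BY4741 grown overnight on glucose or on glycerol. The genes were taken by name, or by systematic identifier where the table gave no name, and numbered 36 of the 7126 genes in the table. The cytosolic group held 23 genes, comprising the cytosolic enzymes and ARC1, which is not an enzyme but an anchor for a pair of them, and the mitochondrial group held 13. All 36 passed the filter on low counts, as did 6330 genes in all. BY4741 is a haploid laboratory strain that lacks HIS3, LEU2, MET17 and URA3, and both groups of libraries came from wild-type cells of it in synthetic complete (SC) medium, with 3 libraries for glucose and 3 for glycerol. The methods call the libraries of a group biological replicates.

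Each synthetase joins 1 amino acid to the tRNAs that carry it, and thereby sets what the ribosome reads at each codon. Yeast translates in the cytosol and, for the few proteins encoded by mitochondrial DNA, inside mitochondria. Most amino acids have a separate nuclear-encoded synthetase for each place, and some have a single gene that makes both forms. Glucose is fermented, whereas glycerol is used by respiration, which depends on proteins made inside mitochondria.

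Library totals lay between 15289163 and 20038052 counts, and the least counted synthetase gene, DIA4, had at least 143 counts in every library. LEU2, MET17 and URA3 had 0 counts in all 6 libraries, where a count of 0 allows up to 3 counts, and STE2, the pheromone receptor gene of MATa cells, had more counts than STE3, that of MATalpha cells, in each. The glycerol transporter gene STL1 rose (log2 fold change of glycerol over glucose 5.83 ± 0.19, given with its standard error here and throughout) and the glucose transporter gene HXT3 fell (-6.45 ± 0.16) in glycerol. Cytosolic ribosomal protein genes took 24.99 to 28.4% of the counts in glucose and 5.73 to 6.79% in glycerol. Changes are given relative to TMM scaling, which left the median of all tested genes at a log2 fold change of 0.03, while scaling by library totals alone put it at 0.52. Poly(A) RNA was measured as a share of each library, so that fewer transcripts of a gene and more RNA of other genes per cell cannot be told apart.

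The first comparison asked how transcripts of both groups of enzymes differed between the carbon sources. In glycerol, 22 of the 23 cytosolic genes fell and none rose, with a median log2 fold change of -1.79, and for 20 of them the fold change was -1 or lower on the log2 scale. Of the 13 mitochondrial genes, 6 rose, 3 fell and 4 did not pass the test, with a median of 0.27. Over all tested genes 41.7% rose and 40.1% fell, so that 95.7% of the cytosolic genes fell against 40.1% of all genes, whereas the 46.2% of mitochondrial genes that rose lay close to the share over all genes. A gene was counted as changed when the Benjamini-Hochberg adjusted p of edgeR's quasi-likelihood test, taken over all tested genes, was under 0.05. At an unadjusted p under 0.05, 1 cytosolic gene (GRS2) was higher, and DESeq2 called none higher. With the replicate number as a block, GRS2 passed as higher. The same 22 cytosolic genes had all glycerol libraries below all glucose libraries, against 40.8% of all genes, and 6 mitochondrial genes had all glycerol libraries above, against 43% of all genes. With library totals alone the cytosolic group split into 1 higher (GRS2) and 21 lower and the mitochondrial group into 10 higher and 1 lower. In that scaling 3605 of all 6330 tested genes were higher and 1652 lower.

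**Figure D1:**
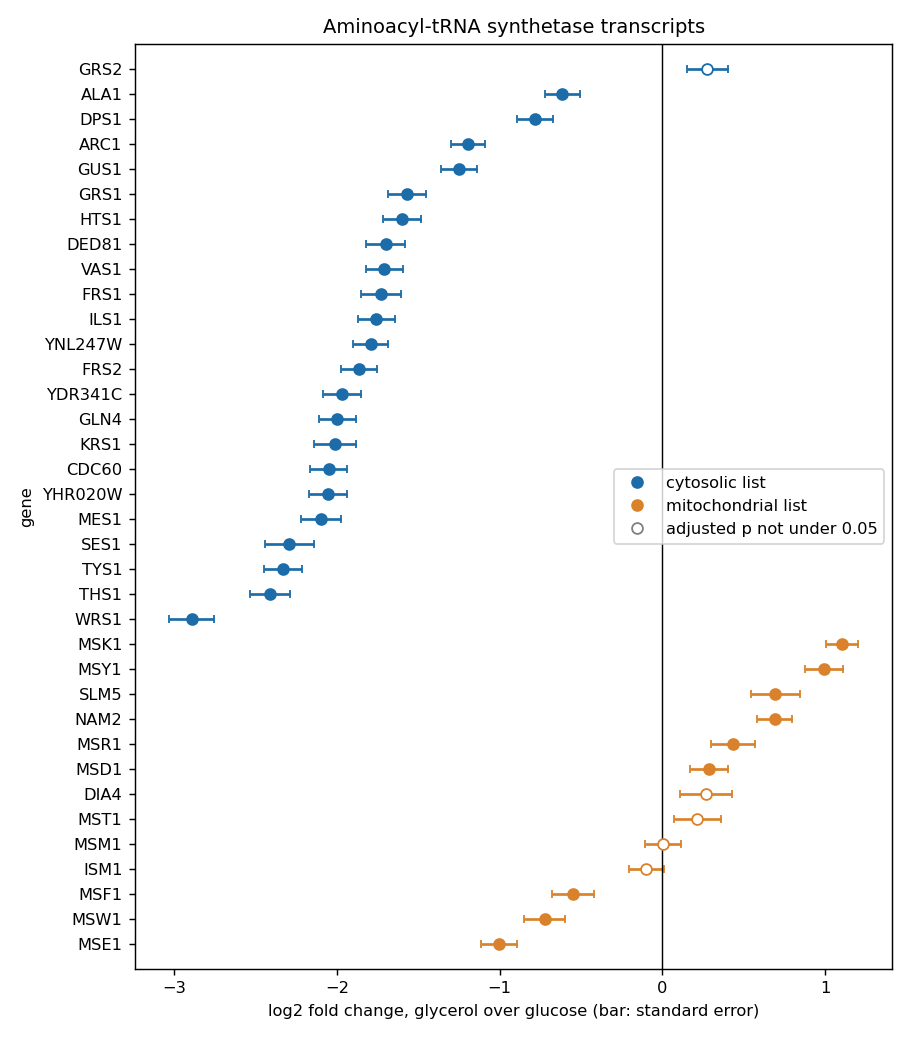
The log2 fold change of glycerol over glucose (horizontal axis) is plotted for each of the 36 genes (vertical axis), with bars for the standard error and open points for genes that did not pass the threshold. All cytosolic points except GRS2 lie left of 0, and the mitochondrial points spread from -1.003 (MSE1) to 1.10 (MSK1).

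Summed over the cytosolic genes, the normalized CPM (counts scaled to a common library size with the TMM factor) were 16261, 16171 and 16665 in glucose and 5162, 4877 and 4517 in glycerol. Summed over the mitochondrial genes they were 332, 357 and 369 in glucose and 418, 445 and 467 in glycerol. The groups of libraries did not overlap for either sum, and the cytosolic sum was lower and the mitochondrial sum higher in glycerol. Within the mitochondrial sum, MSK1 alone went from a mean of 47.0 in glucose to 101 in glycerol, while 3 of the 13 genes fell. As unscaled shares of all counts, the cytosolic genes took 1.34 to 1.44% in glucose and 0.536 to 0.618% in glycerol, and the mitochondrial genes took 0.0277 to 0.0319% and 0.05002 to 0.0554%. Within a library, where scaling cancels, the cytosolic sum was 49.0, 45.3 and 45.1 times the mitochondrial sum in glucose and 12.3, 10.97 and 9.68 times in glycerol.

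Among the cytosolic enzymes, WRS1 (YOL097C, chrXV:136527-137825), which charges tryptophan, fell furthest. Its normalized CPM were 754, 606 and 600.3 in glucose and 88.7, 99.8 and 76.04 in glycerol. Every glycerol library lay far below every glucose library, a 7.41-fold fall (log2 fold change -2.89 ± 0.14, adjusted p = 4.40e-11). THS1 (YIL078W, chrIX:212499-214703), the threonyl-tRNA synthetase, had normalized CPM of 1405, 1384 and 1401 in glucose and 299, 260.2 and 228 in glycerol. Its glucose libraries were nearly equal and the groups did not overlap (log2 fold change -2.41 ± 0.13, adjusted p = 1.05e-10). TYS1 (YGR185C, chrVII:866336-867520), which charges tyrosine, had normalized CPM of 421, 479 and 518 in glucose and 98.9, 93.02 and 89.8 in glycerol. The fall was 5.03-fold, with no overlap (log2 fold change -2.33 ± 0.11, adjusted p = 6.19e-11). SES1 (YDR023W, chrIV:489508-490896), the seryl-tRNA synthetase, had normalized CPM of 1993, 1585 and 1339 in glucose and 342, 366 and 297 in glycerol. Glucose replicate 1 was the highest of its libraries and the spread in glucose was wider than for the other large falls, yet the groups did not overlap (log2 fold change -2.29 ± 0.15, adjusted p = 1.34e-09). MES1 (YGR264C, chrVII:1019598-1021853), which charges methionine on both initiator and elongator tRNAs, had normalized CPM of 672, 549 and 601 in glucose and 157, 143 and 126 in glycerol. The groups were again apart (log2 fold change -2.10 ± 0.12, adjusted p = 4.46e-10).

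The 2 smallest falls among the cytosolic genes belonged to ALA1 and DPS1. DPS1 (YLL018C, chrXII:109902-111575), the aspartyl-tRNA synthetase, had normalized CPM of 665, 724 and 749 in glucose and 383, 431 and 427 in glycerol. All glycerol libraries were lower, and the fall was 1.72-fold (log2 fold change -0.78 ± 0.11, adjusted p = 7.92e-06). Of the other cytosolic genes, 5 are given here by their range, namely FRS1 and FRS2, the beta and alpha subunits of phenylalanyl-tRNA synthetase, and GLN4, ILS1 and YHR020W, which charge glutamine, isoleucine and proline. All of them fell, with log2 fold changes from -2.06 (YHR020W, SE 0.12) to -1.73 (FRS1, SE 0.12) and adjusted p of at most 3.39e-09. Both subunits of the phenylalanine enzyme thus fell by similar amounts, and the FRS2 count as a multiple of the FRS1 count was 0.697, 0.646 and 0.667 in glucose and 0.572, 0.623 and 0.633 in glycerol. This ratio was 0.910 times as high in glycerol without overlap (exact permutation test, two-sided, p = 0.1, the smallest 3 against 3 libraries can give). DED81 and YHR020W are divergent neighbours on chromosome VIII whose start codons lie on either side of a 437-base gap, and both fell.

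By structural class, and read against the 41.7% of all genes that rose and the 40.1% that fell, all 10 cytosolic class I enzymes fell (median log2 fold change -1.98) and 11 of 12 class II enzymes fell (median -1.71). In the mitochondrial group, 3 of 7 class I enzymes rose and 2 fell (median 0.00), and 3 of 6 class II enzymes rose and 1 fell (median 0.28), with shares of rising genes close to that over all genes. Class I and class II are the unrelated catalytic folds on which all synthetases are built.

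**Figure D2:**
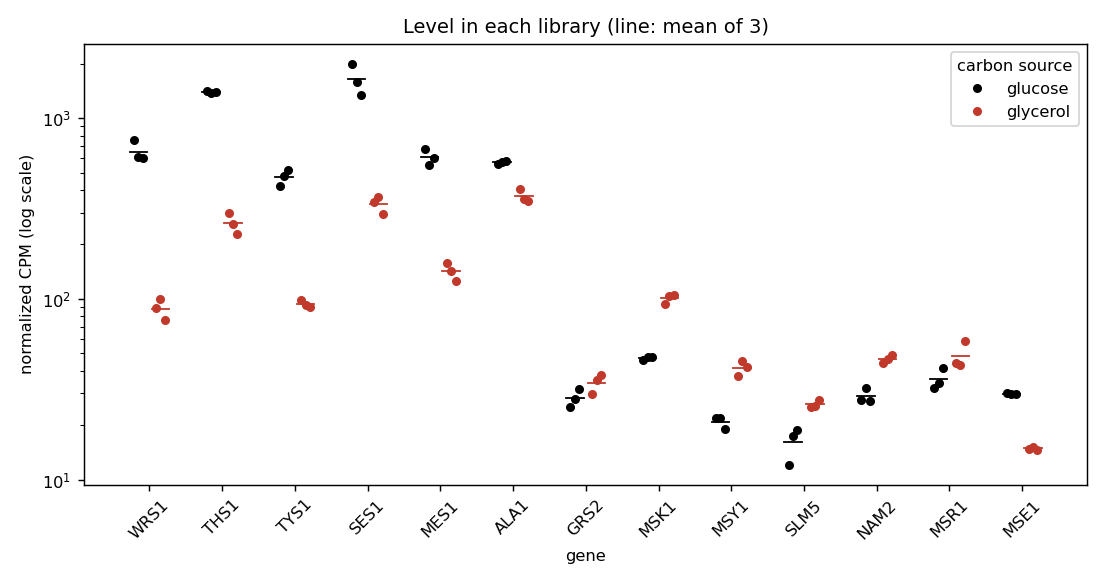
Normalized CPM (vertical axis, log scale) of 13 genes (horizontal axis) in each of the 3 glucose and 3 glycerol libraries, 1 point per library, with a line at the mean of each group. The points of WRS1, THS1, TYS1, SES1, MES1 and ALA1 are lower in glycerol, those of MSK1, MSY1, SLM5, NAM2 and MSR1 are higher, those of GRS2 overlap, and those of MSE1 lie near 30 in glucose and near 15 in glycerol.

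Arc1 holds the glutamyl-tRNA synthetase Gus1 and the methionyl-tRNA synthetase Mes1 together in the cytosol. ARC1 (YGL105W, chrVII:307437-308567) had normalized CPM of 423, 454 and 489.5 in glucose and 198, 209 and 191 in glycerol. GUS1 (YGL245W, chrVII:39023-41149) had 619, 709.7 and 731 in glucose and 293, 299.8 and 274 in glycerol. Both genes fell without overlap, ARC1 by 2.29-fold (log2 fold change -1.19 ± 0.11, adjusted p = 4.86e-08) and GUS1 by 2.38-fold (log2 fold change -1.25 ± 0.11, adjusted p = 4.88e-08), and these are among the smaller falls of the cytosolic group. MES1, whose values are given above, fell by 4.28-fold. Within libraries, the GUS1 count was 1.46, 1.56 and 1.49 times the ARC1 count in glucose and 1.48, 1.44 and 1.44 times in glycerol, with overlapping groups (exact permutation test, two-sided, p = 0.2). The MES1 count was 1.59, 1.21 and 1.23 times the ARC1 count in glucose and 0.793, 0.685 and 0.659 times in glycerol, without overlap (exact permutation test, two-sided, p = 0.1). MES1 was thus lower relative to ARC1 in every glycerol library than in any glucose library, whereas the GUS1 to ARC1 ratios of the groups overlapped. These ratios, like those of FRS2 to FRS1 and of GRS2 to GRS1, were chosen after the values were seen, and no such p could reach 0.05.

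ALA1, GRS1, HTS1, VAS1 and YNL247W were taken as the genes that supply both compartments from 1 gene each, and gene counts cannot separate the 2 forms. Whether other members of the cytosolic group, GUS1 among them, also serve mitochondria was not examined. All 5 genes named first fell, with a median log2 fold change of -1.60. ALA1 (YOR335C, chrXV:946233-949109), the alanyl-tRNA synthetase, had normalized CPM of 555, 570.3 and 581 in glucose and 407, 359 and 347 in glycerol. It fell by 1.53-fold without overlap (log2 fold change -0.62 ± 0.11, adjusted p = 8.39e-05), the smallest fall of the cytosolic group, and with library totals alone its log2 fold change was -0.12 and did not pass the test. HTS1 (YPR033C, chrXVI:637379-639019), the histidyl-tRNA synthetase, had normalized CPM of 591, 521 and 518 in glucose and 193, 186 and 159 in glycerol. Its groups were apart (log2 fold change -1.60 ± 0.12, adjusted p = 4.36e-09). VAS1 (YGR094W, chrVII:672186-675500), the valyl-tRNA synthetase, had normalized CPM of 1014, 1111 and 1169.5 in glucose and 357, 343 and 308 in glycerol, and again the groups were apart (log2 fold change -1.71 ± 0.12, adjusted p = 1.93e-09). YNL247W (chrXIV:182875-185178), the cysteinyl-tRNA synthetase, had normalized CPM of 359.6, 386 and 425 in glucose and 119, 111 and 108 in glycerol. All its glycerol libraries were lower (log2 fold change -1.79 ± 0.11, adjusted p = 5.69e-10).

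The start of the HTS1 and VAS1 coding sequences is shown because it holds the pair of in-frame ATG codons from which the mitochondrial and the cytosolic form are made (RefSeq, R64, first bases of the annotated coding sequence, both ATG codons in capitals). The upstream ATG adds a stretch to the protein that directs it to mitochondria. In HTS1 the second capital ATG is codon 21, and in VAS1 it is codon 47.
HTS1 (chrXVI:638930-639019, - strand): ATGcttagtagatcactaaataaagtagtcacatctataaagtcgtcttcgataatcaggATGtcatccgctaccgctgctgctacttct
VAS1 (chrVII:672186-672335, + strand): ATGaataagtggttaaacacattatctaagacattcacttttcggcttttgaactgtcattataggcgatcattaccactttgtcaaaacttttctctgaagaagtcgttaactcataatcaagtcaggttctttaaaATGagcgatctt

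GRS1 (YBR121C, chrII:481364-483367), the glycyl-tRNA synthetase gene that serves both compartments, has a duplicate, GRS2 (YPR081C, chrXVI:702114-703970). GRS1 had normalized CPM of 1101, 1009.9 and 1048 in glucose and 388, 361 and 313 in glycerol. It fell by 2.97-fold without overlap (log2 fold change -1.57 ± 0.12, adjusted p = 6.01e-09). GRS2 had normalized CPM of 25.3, 27.9 and 31.9 in glucose and 29.9, 35.4 and 37.7 in glycerol. The groups overlapped, and GRS2 did not pass the test (log2 fold change 0.28 ± 0.13, adjusted p = 0.054). With the replicate number as a block, the log2 fold change of GRS2 was 0.27 with an adjusted p of 0.0228, and it also passed with library totals alone (0.77), with totals that left out cytosolic ribosomal protein genes (0.41), without glucose replicate 3 (0.37) and without glycerol replicate 1 (0.37). The GRS2 count was 0.0230, 0.0277 and 0.0305 times the GRS1 count in glucose and 0.0771, 0.0979 and 0.120 times in glycerol, a ratio 3.61-fold higher in glycerol without overlap (exact permutation test, two-sided, p = 0.1). The proteins of 667 and 618 residues, translated from the reference, were identical at 60.6% of aligned positions.

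Among the mitochondrial enzymes, MSK1 (YNL073W, chrXIV:488386-490116), the lysyl-tRNA synthetase that also takes part in the import of a cytosolic lysine tRNA, rose most. Its normalized CPM were 45.96, 47.6 and 47.6 in glucose and 93.8, 104 and 106 in glycerol. All glycerol libraries lay well above all glucose libraries, a 2.15-fold rise (log2 fold change 1.10 ± 0.10, adjusted p = 4.53e-08). MSY1 (YPL097W, chrXVI:364952-366430), the tyrosyl enzyme, had normalized CPM of 21.96, 21.8 and 19.1 in glucose and 37.7, 45.4 and 41.9 in glycerol. The rise was 1.99-fold, without overlap (log2 fold change 0.99 ± 0.12, adjusted p = 1.22e-06). SLM5 (YCR024C, chrIII:160744-162222), the asparaginyl enzyme, had normalized CPM of 12.1, 17.3 and 18.9 in glucose and 25.1, 25.4 and 27.7 in glycerol. Glucose replicate 1 was the lowest, and the groups did not overlap (log2 fold change 0.69 ± 0.15, adjusted p = 5.27e-04). NAM2 (YLR382C, chrXII:882067-884751), the leucyl enzyme that also helps to splice mitochondrial introns, had normalized CPM of 27.5, 31.96 and 27.1 in glucose and 44.4, 46.3 and 48.7 in glycerol. All its glycerol libraries were higher (log2 fold change 0.69 ± 0.11, adjusted p = 2.82e-05).

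The other 2 rises were smaller. MSR1 (YHR091C, chrVIII:284839-286770), the arginyl enzyme, had normalized CPM of 32.2, 34.4 and 41.4 in glucose and 44.2, 43.1 and 58.3 in glycerol. Glycerol replicate 3 was the highest and the groups lay close together (log2 fold change 0.43 ± 0.14, adjusted p = 0.0081), and without that library the log2 fold change was 0.28 with an adjusted p of 0.0702. MSD1 (YPL104W, chrXVI:355700-357676), the aspartyl enzyme, had normalized CPM of 20.5, 23.05 and 25.1 in glucose and 27.8, 27.6 and 28.3 in glycerol. The groups were apart by little (log2 fold change 0.29 ± 0.11, adjusted p = 0.0322), and the call was lost in DESeq2 (adjusted p = 0.0557) and when any single library other than glucose replicate 3 was left out (adjusted p between 0.0621 and 0.119).

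MSE1, MSW1 and MSF1 fell. MSE1 (YOL033W, chrXV:263475-265085), the mitochondrial glutamyl enzyme, had normalized CPM of 30.1, 29.8 and 29.7 in glucose and 14.8, 15.2 and 14.7 in glycerol. The libraries of each group were nearly equal and the groups were far apart (log2 fold change -1.003 ± 0.11, adjusted p = 5.99e-07). MSW1 (YDR268W, chrIV:1004004-1005143), which charges tryptophan, had normalized CPM of 26.04, 29.8 and 24.9 in glucose and 17.7, 16.6 and 14.6 in glycerol (log2 fold change -0.72 ± 0.13, adjusted p = 7.47e-05). MSF1 (YPR047W, chrXVI:657529-658938), a single-chain phenylalanyl enzyme, had normalized CPM of 26.95, 24.9 and 31.2 in glucose and 17.9, 17.7 and 20.99 in glycerol (log2 fold change -0.55 ± 0.13, adjusted p = 9.50e-04). Neither overlapped between the groups, but with library totals alone MSW1 (-0.23) and MSF1 (-0.06) did not pass the test. MSM1, MST1, ISM1 and DIA4, which charge methionine, threonine, isoleucine and serine, did not pass it under TMM scaling. The log2 fold change of MSM1 was 0.00 ± 0.11, adjusted p = 0.972, and that of ISM1 was -0.10 ± 0.11, adjusted p = 0.396. For MST1 it was 0.21 ± 0.14, adjusted p = 0.185, and for DIA4 it was 0.27 ± 0.16, adjusted p = 0.131. The libraries of the groups overlapped for each of these genes. With library totals alone all 4 passed it as higher, MST1 (0.34) and DIA4 (0.40) also did with totals that left out cytosolic ribosomal protein genes, and DIA4 did without glucose replicate 3 (0.40).

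The second comparison set the mitochondrial gene against the cytosolic gene of the same amino acid within each library, where scaling cancels. There were 14 pairs over 13 amino acids, because FRS1 and FRS2 were each set against MSF1. In all 14, the ratio of the mitochondrial to the cytosolic count was higher in every glycerol library than in every glucose library, and it was between 1.18-fold and 9.98-fold higher (median 4.89). In 6 pairs the cytosolic gene fell while the mitochondrial gene rose, in 4 both fell, and in 4 only the cytosolic gene passed the test. The cytosolic gene fell in every pair, so a mitochondrial gene that stayed level or fell less also gave a higher ratio. The ratio of MSW1 to WRS1 was 4.49-fold higher although MSW1 fell (log2 fold change -0.72). Genes outside the list were not set against the cytosolic genes, so the count of 14 has no share over all genes beside it. Each pair had an exact permutation p of 0.1 (two-sided, also 0.1 after adjustment over the 14 pairs), which is the smallest 3 against 3 libraries can give. With libraries paired by replicate number, a test added after seeing the data, each had a two-sided exact p of 0.25, the smallest 3 pairs can give, so that no pair of genes could reach 0.05 either way.

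For tyrosine, the MSY1 count as a percentage of the TYS1 count was 5.21, 4.55 and 3.68% in glucose and 38.1, 48.9 and 46.7% in glycerol. This was the largest change, 9.98-fold. For lysine, the ratio of the MSK1 count to the KRS1 count was 4.56, 4.20 and 3.78% in glucose and 29.5, 39.4 and 40.7% in glycerol. KRS1 itself (YDR037W, chrIV:525440-527215) had normalized CPM of 1007, 1132 and 1258 in glucose and 318, 263 and 259.7 in glycerol (log2 fold change -2.01 ± 0.13, adjusted p = 1.03e-09). The ratio was 8.67-fold higher, with opposite changes of its 2 genes. For leucine, the ratio of the NAM2 count to the CDC60 count was 5.18, 5.79 and 4.66% in glucose and 29.8, 36.7 and 38.5% in glycerol. CDC60 (YPL160W, chrXVI:246990-250262) had normalized CPM of 530.4, 552 and 581 in glucose and 149, 126 and 126 in glycerol (log2 fold change -2.05 ± 0.11, adjusted p = 2.05e-10). The ratio was 6.71-fold higher, again with opposite changes.

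For arginine, the ratio of the MSR1 count to the YDR341C count was 5.15, 5.51 and 6.49% in glucose and 25.2, 25.8 and 42.1% in glycerol. YDR341C (chrIV:1151803-1153626) had normalized CPM of 625, 624 and 638 in glucose and 175, 167 and 139 in glycerol (log2 fold change -1.97 ± 0.12, adjusted p = 4.81e-10). Glycerol replicate 3 had the highest ratio, and the other glycerol libraries were still far above glucose. For asparagine, the ratio of the SLM5 count to the DED81 count was 1.55, 1.89 and 1.88% in glucose and 8.62, 9.44 and 10.2% in glycerol. DED81 (YHR019C, chrVIII:141894-143558) had normalized CPM of 784, 916 and 1007 in glucose and 291, 269 and 272 in glycerol (log2 fold change -1.70 ± 0.12, adjusted p = 3.28e-09). No library of one group reached the other. For aspartate, the ratio of the MSD1 count to the DPS1 count was 3.09, 3.18 and 3.35% in glucose and 7.27, 6.40 and 6.61% in glycerol, a smaller difference than in the other pairs with opposite changes. For glutamate, where both genes fell by about the same amount, the ratio of the MSE1 count to the GUS1 count was 4.85, 4.20 and 4.07% in glucose and 5.07, 5.06 and 5.36% in glycerol. This pair had the smallest change, and its groups were separated by a narrow gap. In the 7 other pairs the ratio was between 2.25-fold (MSF1 and FRS1) and 6.21-fold (MST1 and THS1) higher in glycerol.

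**Figure D3:**
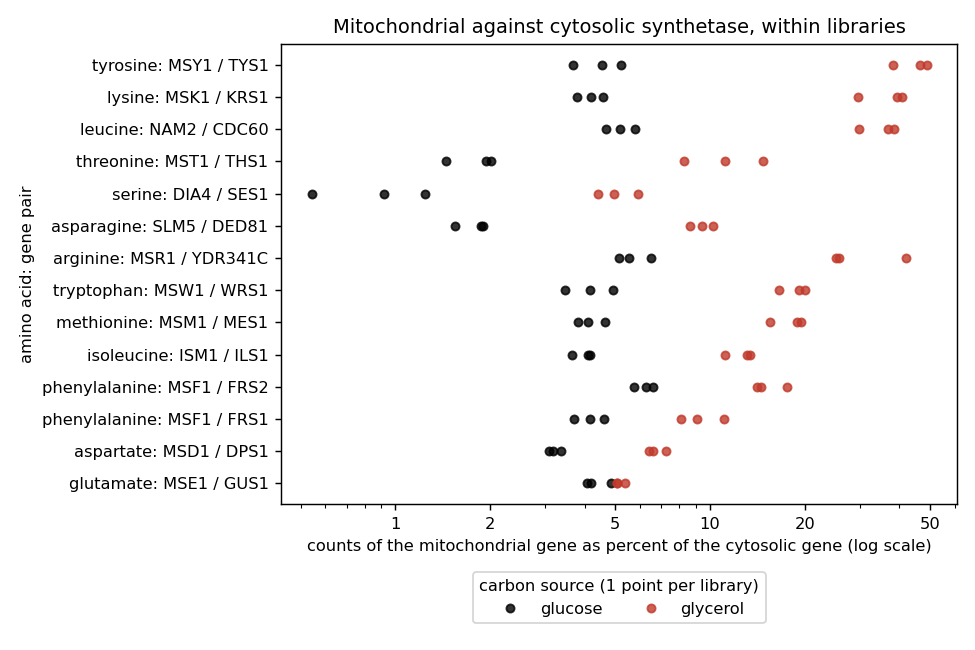
Counts of the mitochondrial gene as a percentage of the counts of the cytosolic gene (horizontal axis, log scale) for the 14 pairs (vertical axis), 1 point per library. Glycerol points lie right of glucose points in every pair, from the narrow gap of MSE1 and GUS1 to the 9.98-fold change of MSY1 and TYS1.

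Protein identity between paired enzymes was computed from the reference translations and was highest for arginine, where YDR341C and Msr1 were identical at 58.8% of aligned positions, followed by threonine at 46.1% for Ths1 and Mst1. Lysine had 34.3% and tyrosine 23.5%. The close arginine pair and the distant tyrosine pair both showed opposite changes of their 2 genes. How reads that match both genes of a close pair were counted is not given in the sources used here.

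Levels of different genes were compared per kilobase of gene length. On the scale of normalized CPM per kilobase, SES1 had the highest mean level in glucose (1180), followed by KRS1 (638) and THS1 (633), which lay close together. The lowest cytosolic level in glucose was that of GRS2 (15.3), and the next were YNL247W and CDC60 (169 each). Mitochondrial levels in glucose ran from 10.5 (DIA4) to 27.2 (MSK1). Without GRS2, then, the ranges of the groups were well separated in glucose. In glycerol, DPS1 had the highest mean level (247) and SES1 the next (241), and their libraries overlapped. The level of MSK1 per kilobase, 26.5, 27.5 and 27.5 in glucose and 54.2, 59.9 and 61.04 in glycerol, came to lie among the cytosolic enzymes in glycerol. In glycerol all its libraries were above those of CDC60, which was at 162, 169 and 178 in glucose and 45.5, 38.5 and 38.6 in glycerol. They overlapped with those of YHR020W, which was at 237, 224 and 227 in glucose and 62.99, 52.8 and 49.7 in glycerol.

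**Figure D4:**
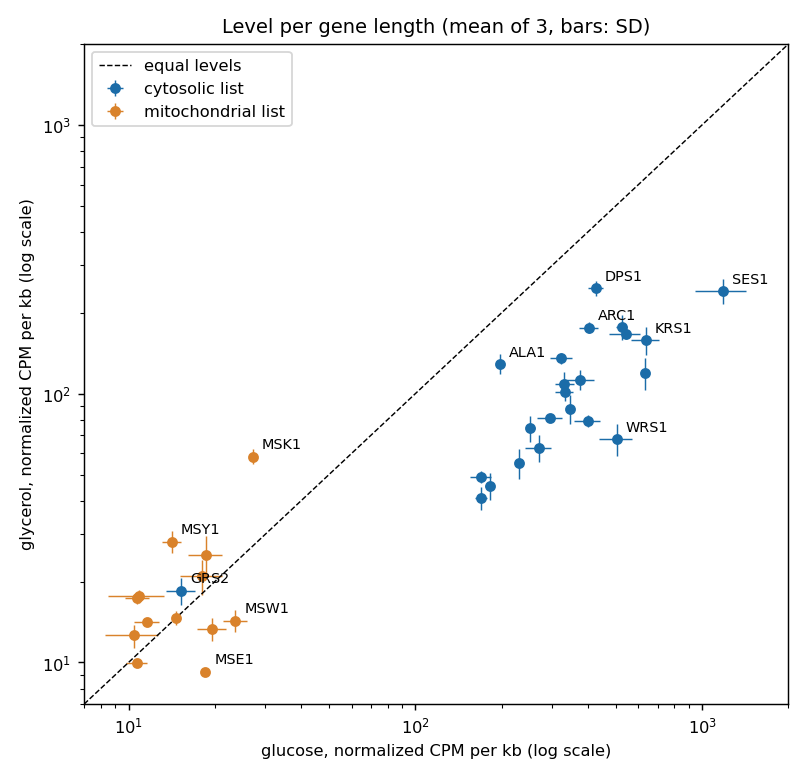
Mean level of each of the 36 genes in glucose (horizontal axis) and glycerol (vertical axis), both in normalized CPM per kilobase on log scales, with bars for the SD of 3 libraries and a dashed line of equal levels. Cytosolic points other than GRS2 lie to the upper right and below the line, and MSK1 at 58.4 in glycerol lies above the lowest of them, such as CDC60 at 40.9.

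Sequence was used to ask what the promoters of the 2 groups hold. In budding yeast, RRPE and PAC are short promoter elements found in ribosome biogenesis genes, TGACTC is the core of the site of Gcn4, an activator of amino acid synthesis genes, and CCAAT is bound by the Hap complex, which acts on respiratory genes. Literal matches on both strands were counted from 250 bases before to 50 bases after each start codon, in 6001 promoters of the R64 genome from RefSeq. RRPE (AAATTTT) matched 18 of 23 cytosolic promoters (78.3%) and 1 of 13 mitochondrial promoters (7.69%, MSM1), against 23.2% of all promoters. TGACTC matched 10 cytosolic (43.5%) and 0 mitochondrial promoters, against 7.98% of all. PAC (GATGAG) matched 7 cytosolic (30.4%) and 1 mitochondrial promoter (7.69%, MSE1), against 20.4% of all, and in THS1 and WRS1 the match ran across the start codon itself. CCAAT matched 11 cytosolic (47.8%) and 3 mitochondrial promoters (23.1%), against 43.3% of all. The only TGACTC match of GLN4 and all CCAAT matches of FRS2, GRS2 and SES1 lay after the start codon, within the coding sequence. Matches were counted for each motif on its own, and PAC can share its last 3 bases with the Gcn4 letters read on the other strand (GAGTCA). A match is a string of letters and does not show that a factor binds there.

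**Figure D5:**
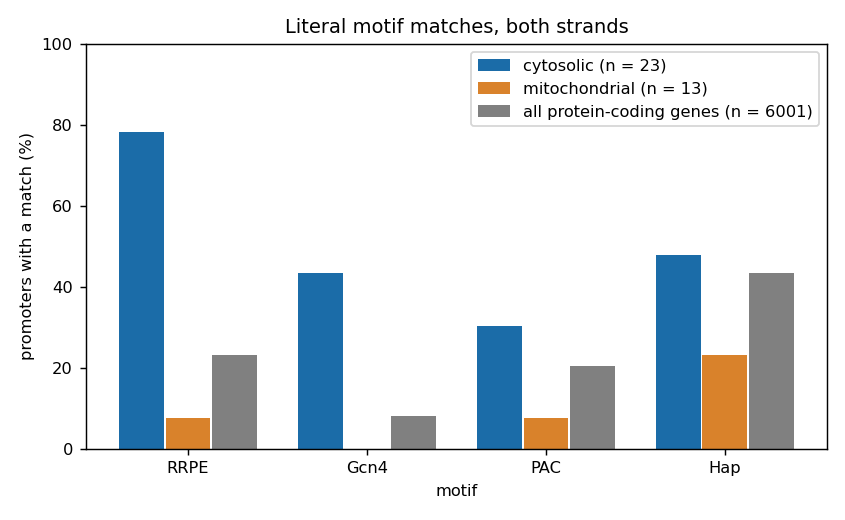
Percentage of promoters with at least 1 literal match (vertical axis) for each of 4 motifs (horizontal axis) in 23 cytosolic, 13 mitochondrial and 6001 promoters of protein-coding genes. RRPE and TGACTC (marked Gcn4) are more frequent in the cytosolic than in all promoters, at 78.3% against 23.2% and 43.5% against 7.98%.

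Stretches of 30 bases around the RRPE match are shown for the 5 cytosolic genes that fell furthest and for 3 others that also hold TGACTC (5′ to 3′ on the strand of the gene, RefSeq R64, RRPE letters in capitals). In most of them the match and its reverse complement overlap and form an 8-letter run.
WRS1 (chrXV:137875-137904, - strand, match 68 bases before the start codon): caaaacgttgaAAAATTTTttttagtcatt
THS1 (chrIX:212336-212365, + strand, match 152 bases before the start codon): tatcttgctaaAAAATTTTtttcgaggaat
TYS1 (chrVII:867602-867631, - strand, match 100 bases before the start codon): tacaaagtagaAAAATTTTatgaaaattaa
SES1 (chrIV:489350-489379, + strand, match 147 bases before the start codon): tggtgcaaaaaAAAATTTTtttgtcatttc
MES1 (chrVII:1021993-1022022, - strand, match 158 bases before the start codon): cggaggcagaaAAAATTTctgtacgcaact
YDR341C (chrIV:1153733-1153762, - strand, match 125 bases before the start codon): gcgaagcgaaaAAAATTTTtagcttcaatt
ILS1 (chrII:84398-84427, - strand, match 155 bases before the start codon): catgatgacgaAAAATTTTttttttttttg
VAS1 (chrVII:672062-672091, + strand, match 113 bases before the start codon): accgcgctgaaAAAATTTTtttagaagagt

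The 5 cytosolic genes with no RRPE match in the stretch searched were ALA1, DPS1, GRS2, KRS1 and YHR020W. They include ALA1 and DPS1, the 2 genes with the smallest falls, and GRS2, which did not pass the test. They also include KRS1 (-2.01) and YHR020W (-2.06), which fell further than the median of the cytosolic group (-1.79). The median log2 fold change of the 5 genes without a match was -0.78 (range -2.06 to 0.28), and that of the 18 genes with a match was -1.83 (range -2.89 to -1.19). This split was read after the values were seen and was not tested. It also depends on the stretch searched. The RRPE match of DED81, 184 bases before its start codon, lies in the gap that DED81 shares with YHR020W. That match falls just outside the stretch searched for YHR020W, which is why YHR020W counts here as a gene without one. The median was -1.88 for the 10 cytosolic genes with TGACTC and -1.73 for the 13 without. This split depends on the stretch searched as well. The TGACTC match of YHR020W lies in the same shared gap, just outside the stretch searched for DED81, which counts as a gene without one. Among the genes without RRPE, ALA1, KRS1 and YHR020W carry TGACTC, and the site is shown for KRS1 and YHR020W with that of THS1, which holds both motifs (5′ to 3′, TGACTC or its reverse complement in capitals).
KRS1 (chrIV:525294-525323, + strand, match 134 bases before the start codon): tgaatgatgaaaTGACTCttaatgaacttc
YHR020W (chrVIII:143802-143831, + strand, match 182 bases before the start codon): taagcgatgcttGAGTCActgaatgtcttg
THS1 (chrIX:212283-212312, + strand, match 204 bases before the start codon): ttactgtttaaaTGACTCttaccttgtgat

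The region from 250 to 100 bases before the start codon is printed for THS1, where both motifs lie (capitals), and for MSK1, the mitochondrial gene that rose most, which held no match to any of the 4 motifs.
THS1 (chrIX:212249-212399, + strand): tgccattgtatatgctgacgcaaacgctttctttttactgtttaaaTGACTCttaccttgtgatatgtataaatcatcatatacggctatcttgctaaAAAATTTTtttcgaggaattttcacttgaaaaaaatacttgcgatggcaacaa
MSK1 (chrXIV:488136-488286, + strand): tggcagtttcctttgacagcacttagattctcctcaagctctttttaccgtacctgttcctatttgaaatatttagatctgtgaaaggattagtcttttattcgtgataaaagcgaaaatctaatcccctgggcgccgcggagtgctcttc

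Genes that work beside the synthetases were counted from lists of related functions, of a few genes each, beside the 41.7% of all tested genes that rose and the 40.1% that fell. Of 5 mitochondrial charging partners, 4 rose and 1 fell. FMT1, which formylates the methionine on the mitochondrial initiator tRNA, rose most (log2 fold change 1.91 ± 0.15). GTF1 (1.02 ± 0.10), PET112 (0.60 ± 0.13) and HER2 (0.47 ± 0.11), whose products form the amidotransferase that turns glutamate on mitochondrial glutamine tRNA into glutamine, all rose. AIM10, a mitochondrial prolyl-tRNA synthetase by similarity, fell (-1.04 ± 0.12). Of 6 genes for elongation factors and their partners, which work in the delivery of charged tRNAs to the ribosome, TUF1, the mitochondrial elongation factor, rose (0.78 ± 0.10). The 4 cytosolic genes TEF1 (-1.33 ± 0.11), TEF2 (-1.40 ± 0.11), TEF4 (-2.17 ± 0.11) and EFB1 (-1.85 ± 0.11) fell. CAM1 did not pass the test (-0.03 ± 0.11), although with library totals alone it was higher (0.46). TEF1 and TEF2 encode the same protein, and reads may have been divided between them.

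Of 4 genes of the general amino acid control pathway, which senses uncharged tRNA, GCN4 (0.64 ± 0.11) and GCN2 (0.30 ± 0.09) rose and GCN1 (-0.85 ± 0.11) and GCN20 (-1.21 ± 0.11) fell. Gcn4 is controlled mainly at translation, which transcript counts do not measure. Of 8 genes for tRNA maturation and modification in mitochondria or in both places, 4 rose and 3 fell, or 50% and 37.5%, near the 41.7% and 40.1% over all genes. With library totals alone 5 rose and 2 fell, where 3605 of all 6330 tested genes were higher and 1652 lower. RPM2, which encodes the protein subunit of mitochondrial RNase P, rose most (2.91 ± 0.11), and TRM1, a tRNA methyltransferase gene, fell most (-1.40 ± 0.12). Of 137 cytosolic ribosomal protein genes 133 fell (median -2.45), and of 66 mitochondrial ribosomal protein genes taken by name 24 rose and 24 fell (median 0.04), 36.4% each way and again near the shares over all genes. With library totals alone 43 of these 66 rose and 8 fell, while 131 of the 137 cytosolic ribosomal protein genes fell. These counts too stand beside 3605 of all 6330 tested genes higher and 1652 lower. Cytosolic ribosomal protein transcripts were thus lower where the cytosolic synthetase transcripts were, and their part in the fall was not tested, beyond the scaling that left them out of the library totals, under which the cytosolic median was -1.66 and the mitochondrial median 0.40.

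The libraries carried no strand information, and 5 members overlap another gene of the table. MES1 shares 206 bases with YGR265W, which had at most 110 counts in any library. GLN4 shares 357 bases with YOR169C and ILS1 shares 286 bases with YBL077W, each with at most 17 counts, and the genes that overlap ALA1 and GRS1 had 0 counts in every library. How reads in a shared stretch were counted is not given in the sources used here. The low counts of these other genes therefore do not show that the overlaps left the members' counts unchanged.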

How the data were processed

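Poly(A) RNA of 3 glucose and 3 glycerol cultures was sequenced in paired-end, non-stranded libraries. Per the labels, the submitters' processing notes name fastp 0.20.1, HISAT2 2.2.1, featureCounts 2.0.1, DESeq2 and the R64 genome. The authors deposited 1 table for the whole series with raw counts per gene, FPKM values (not used here, as counts were at hand) and the gene length and position. Its fold change and p-value columns hold the authors' own comparison and were not used, and no per-sample column was left unassigned. Library totals were between 15289163 and 20038052 counts.

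The 6330 genes that reached 10 counts in 3 or more libraries were scaled with TMM and tested with the quasi-likelihood test of edgeR 4.0.16 in R 4.3.3, two-sided, at a Benjamini-Hochberg adjusted p under 0.05 over the tested genes. The methods of the paper name no test for these counts, and what DESeq2 was used for is not stated in the notes. Standard errors came from the fold change and the F value. DESeq2 1.42.0, other scalings and filters, a replicate block and leaving out each library were run as alternatives. The steps were tested on simulated counts in which a small share of the genes changed, equally up and down. In the data most tested genes passed the test, so the simulation does not bear on the choice of scaling.

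Replicate numbers are shared between the groups, and no source says what a number shares. Over genes that averaged 100 counts or more, deviations of same-numbered libraries from their group means correlated at 0.250, 0.105 and 0.289, and over all tested genes at 0.171, 0.059 and 0.197. On the first of these gene sets each value passed 0.1, although on the second that of number 2 did not. The main fit held no term for the number, so its standard errors and p-values ignore any such pairing. The value of the fit with the number as a block is given where it changes a call. Replicates differed by more than counting noise (chi-square over its degrees of freedom 16.4 to 63.7).

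Of the table's genes 6048 are listed by RefSeq for R64, 6036 with the same start and end, including all 36 synthetase genes, and sequences were read from that genome (Biopython 1.88). Figures were drawn with matplotlib 3.10.9. Values per library are given for the 5 largest falls and rises, ARC1 and its partners, the GRS1 and GRS2 pair, genes serving both compartments, and pairs with opposite changes. The members and gene lists were chosen with earlier results of these data known.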

Additional observations from a re-analysis of the deposited data

How the results depend on the processing

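In the other scalings, filters, tools and subsets of libraries tried, 22 cytosolic genes were lower, except for 21 with library totals alone. With library totals alone 1 cytosolic gene was higher (GRS2), 10 mitochondrial genes were higher and 1 was lower, and the medians were -1.30 and 0.76. In that scaling 3605 of all genes were higher and 1652 lower, and ISM1 was at 0.39. With totals that left out cytosolic ribosomal protein genes 1 cytosolic gene was higher (GRS2), the medians were -1.66 and 0.40, and ISM1 was at 0.031. With the replicate number as a block 1 cytosolic gene was higher (GRS2), and no other call on a synthetase gene changed. MSM1, near 0 throughout except with library totals alone, changed sign to -0.0081 with DESeq2 size factors and in DESeq2 and to -0.0015 with no filter on low counts. When single libraries were left out, MSM1 ranged from -0.045 to 0.029, the count of higher cytosolic genes from 0 to 1, the count of higher mitochondrial genes from 4 to 7, and the mitochondrial median from 0.12 (without glucose replicate 1) to 0.36. The cause of these shifts was not tested. With 3 libraries per group, an exact test of a within-library ratio cannot go below p = 0.1.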
